A study of Mus musculus with 10 samples.

Results

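*Cxcl1*, *Cxcl2*, *Cxcl3*, *Cxcl5* and *Ppbp* encode CXC chemokines that attract neutrophils, and *Csf3* encodes granulocyte colony-stimulating factor, the cytokine that drives neutrophil production. The 6 genes were selected by symbol from the 56691 genes of the count table, and all 6 were found. Of these, 4 were among the 16545 genes with enough counts to be tested, whereas *Ppbp* and *Csf3* were too low.

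Colon RNA was sequenced from 10 male C57/BL6 mice that entered the study at 8 weeks of age, with all of them drinking 3% dextran sulfate sodium (DSS), a polymer that injures the colon epithelium, for 7 days. For the DSS group (5 mice) the scheme of the study then shows 10 days of gavage with water, which its methods text does not state. In the ceAF group (5 mice) 10 days of gavage with 15 mL/kg a day of chick early amniotic fluid (ceAF) followed. This fluid is drawn from fertilized eggs early in incubation. The scheme of the study places sampling on day 17. Untreated mice and mice given mesalazine were not analysed here, so no value below can be set against a healthy colon.

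The chemokines of this family that carry the ELR motif bind the receptor Cxcr2 on neutrophils and guide them out of the blood. Epithelial cells, fibroblasts, macrophages and neutrophils make them after interleukin 1, tumour necrosis factor or microbial products switch on NF-kB. In DSS colitis, neutrophils enter the mucosa where the epithelial barrier is broken.

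The libraries held between 14676471 and 19901549 counted reads. All 15 colon epithelial markers were tested, from *Muc2*, the gel-forming mucin of goblet cells, at a median CPM (counts scaled to library size by the TMM method) of 6003 among DSS mice and 4280 among ceAF mice, down to the transcription factor *Cdx2* at 227.9 and 132.8. These markers fit the tissue label, and between the groups an unadjusted edgeR p under 0.05 was found for 0 of the 15. DSS-1 and ceAF-1 were examined by measures over all tested genes that do not use the groups. DSS-1 had the highest CPM of the 10 mice in 16.0% of the genes tested, and ceAF-1 had the lowest in 21.0%. The shares of the other mice are not given here. ceAF-1 also had the lowest mean Spearman correlation with the other mice, 0.946. DSS-1 had 0.952 and DSS-5 had 0.958, where the highest of any mouse was 0.975. The share of counts from mitochondrial genes was 9.66% in ceAF-1 and 9.74% in ceAF-5, and lay between 4.53% and 7.24% in the other 8 mice. Folds and list medians that moved by more than 1.5 times without DSS-1 are given with and without it.

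Compared to the DSS group, the fitted level of all 4 tested chemokines was lower in the ceAF group, but 0 of the 4 passed adjustment over all genes. The differences were large for *Cxcl3* and *Cxcl2*, with log2 fold changes of −5.05 and −4.49, and smaller for *Cxcl1* and *Cxcl5*, with −1.40 and −1.08. A single mouse, DSS-1, set most of this: without it the log2 fold changes of *Cxcl3* and *Cxcl2* were −1.48 and −1.49, and those of *Cxcl1* and *Cxcl5* were −0.55 and −0.34. DSS-1 was the highest of the 10 mice in 5 of the 6 genes, the exception being *Ppbp*. The lowest 2 ceAF mice were ceAF-1 and ceAF-5 for each of the 4 chemokines, the same mice that had the highest mitochondrial shares. Without these 2, a choice made after seeing the data, the log2 fold changes were −3.85 for *Cxcl2*, −4.42 for *Cxcl3*, −0.87 for *Cxcl1* and −0.50 for *Cxcl5*, and 0 had an unadjusted edgeR p under 0.05. In whole tissue, fewer cells that make a transcript and less transcript per cell cannot be told apart.

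*Cxcl2* encodes macrophage inflammatory protein 2, a chemokine made in quantity by macrophages and by neutrophils themselves. It reached 501.3 CPM in DSS-1, and stood at 4.0, 33.8, 6.15 and 11.5 CPM in DSS-2 to DSS-5. In the ceAF group it was 0.916, 9.31, 7.29, 6.44 and 0.660 CPM in ceAF-1 to ceAF-5. ceAF-1 and ceAF-5 lay below all DSS mice, and the other 3 ceAF mice lay within the range of the DSS group. The value of DSS-1 was 14.8 times that of the next highest mouse. Group means were 111.4 ± 218.3 CPM (SD, n = 5) for DSS and 4.92 ± 3.92 (SD, n = 5) for ceAF, and the medians were 11.5 and 6.44. The log2 fold change of −4.49 had a standard error of 1.43, with a p-value of 0.0095 before and 0.656 after Benjamini-Hochberg adjustment in edgeR's quasi-likelihood test, and of 0.111 in the exact two-sided permutation test. That test runs over all 252 assignments of the mice to the groups, and the smallest p it can give is 0.00794. Without DSS-1 the standard error was 0.81 and the unadjusted edgeR p was 0.0949. With all 10 mice, voom with sample quality weights gave −1.16 (unadjusted p 0.377). An edgeR fit with the replicate number as a block gave −2.18 (unadjusted p 0.178). The unadjusted call thus differed between these fits. They are not independent of the role of DSS-1, whose voom weight was 0.641 in a range from 0.312 (ceAF-1) to 2.99 (DSS-2). The replicate numbers did not pair the mice, so that block has no basis in the design.

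*Cxcl3* encodes a chemokine closely related to *Cxcl2* and was likewise highest in DSS-1. It was 95.4 CPM in DSS-1 and 0.300, 3.83, 0.833 and 1.92 CPM in DSS-2 to DSS-5. The ceAF mice had 0, 1.11, 0.384, 1.37 and 0.165 CPM. Apart from DSS-1 these values rest on between 0 and 64 counts a mouse, and the 0 in ceAF-1 allows up to 0.229 CPM, the worth of 3 counts in that library. The groups overlapped, with 2 ceAF mice below the lowest DSS mouse and all 5 below the DSS median. The standard error of the log2 fold change was 1.60, with p = 0.0092 unadjusted and 0.656 adjusted in edgeR's test, and the exact permutation p was 0.103. Leaving out DSS-1 gave an unadjusted edgeR p of 0.119. With all mice, voom gave −1.18 (unadjusted p 0.417) and the fit with a replicate block −2.30 (unadjusted p 0.206).

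*Cxcl1* encodes the keratinocyte-derived chemokine KC, a chemokine that epithelial and stromal cells release early in inflammation. Its level in DSS-1 to DSS-5 was 20.1, 0.949, 2.33, 1.60 and 11.2 CPM. In ceAF-1 to ceAF-5 it was 0.382, 5.01, 3.35, 3.52 and 1.37 CPM. The DSS group held both the highest mice, DSS-1 and DSS-5, and mice below 3 of the ceAF group, so that the DSS median of 2.33 CPM was under the ceAF median of 3.35 although the DSS mean was higher. The standard error of the log2 fold change was 0.85, the edgeR p was 0.129 unadjusted and 0.768 adjusted, and the exact permutation p was 0.389. Under voom with sample quality weights, which were lowest for ceAF-1 (0.312) and DSS-5 (0.396), the sign turned to 0.70.

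*Cxcl5* encodes a chemokine known mainly from epithelial cells and had the highest FPKM of the 6 genes in 6 of the 10 mice. Its level was 54.8, 4.90, 9.58, 1.15 and 34.3 CPM in DSS-1 to DSS-5 and 0.229, 17.8, 9.10, 17.8 and 4.40 CPM in ceAF-1 to ceAF-5. DSS-1 and DSS-5 lay above all ceAF mice, the other 3 DSS mice lay among them, and the medians were 9.58 and 9.10 CPM. The standard error of 0.98 was nearly as large as the log2 fold change, with an adjusted p of 0.868 in edgeR's test and an exact permutation p of 0.524, and voom turned the sign to 0.68.

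*Csf3* acts on bone marrow and on mature neutrophils through the receptor Csf3r. It had 151, 2, 12, 2 and 12 counts in DSS-1 to DSS-5 and 0, 10, 7, 3 and 0 counts in ceAF-1 to ceAF-5. DSS-1 alone gave 151 of the 179 counts of the DSS group, against 20 counts in the whole ceAF group. An edgeR fit without a count filter gave a log2 fold change of −3.02 (standard error 1.15) with p = 0.0194 unadjusted and 0.690 adjusted, beside an exact permutation p of 0.175. Without DSS-1 the fold in that fit was −0.75.

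*Ppbp*, the precursor of a platelet chemokine that becomes active after cleavage, was close to the limit of detection. It had 12 counts over the DSS group and 9 over the ceAF group, with no more than 6 in any mouse. DSS-2 and DSS-5 had 0 counts, and a difference between the groups was not detectable at this depth. The fit without a filter gave a log2 fold change of −0.34 (standard error 0.93), which was 0.06 without DSS-1. *Pf4*, the platelet gene beside it on the chromosome, was tested and ranged from 1.41 to 2.55 CPM among DSS mice and from 0.458 to 2.58 among ceAF mice (log2 fold change −0.34, exact permutation p = 0.325). Leaving out single mice gave *Pf4* values from −0.57 to −0.11, and −0.03 was found without DSS-1 and ceAF-1. Of 14 platelet and megakaryocyte markers, 9 were too low to test.

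**Figure D1:**
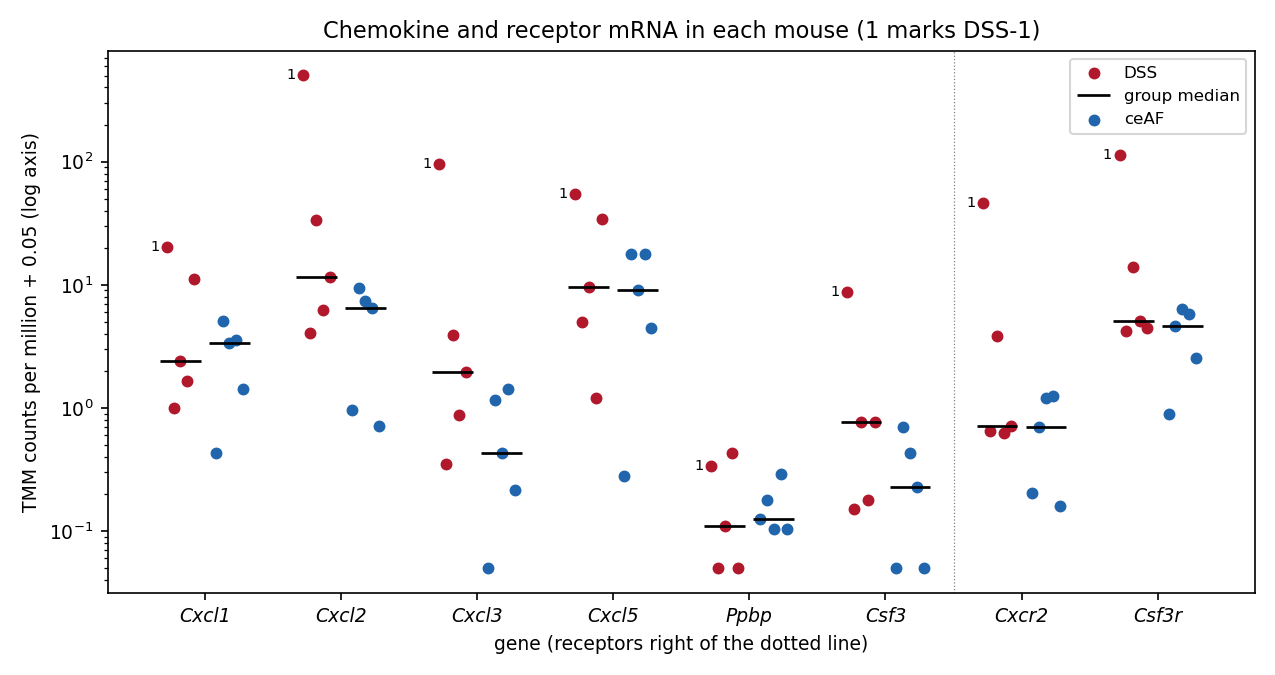
TMM CPM plus 0.05 on a log axis for the 6 genes and the receptors *Cxcr2* and *Csf3r*, 1 point a mouse, with group medians as bars. DSS-1, marked 1, is the highest point for 7 of the 8 genes, and the remaining mice of both groups overlap.

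The background of these counts is as follows. Among the 16545 genes tested, 0% passed an adjusted p under 0.05 in edgeR's test (0 genes, smallest adjusted p 0.656), while DESeq2 called 30 and returned no p for *Cxcl2* and *Cxcl3*. At an unadjusted p under 0.05, 3.67% of genes had a lower and 3.26% a higher level with ceAF, and 2 of the 4 tested chemokines, *Cxcl2* and *Cxcl3*, were among the lower ones. A log2 fold change of −1 or below was found for 1.99% of genes and for all 4 tested chemokines, and without DSS-1 for 0.985% of genes and for 2 of the 4, *Cxcl2* and *Cxcl3*. The median log2 fold change of the 4 was −2.94, where that of all genes tested was 0.01. In the exact permutation test 3.23% of genes were lower at p under 0.05, and 0 of the 4 chemokines were. Without DSS-1, 1.92% of genes were lower at an unadjusted edgeR p under 0.05, again with 0 of the 4, and their median was −1.02. The sign of the median thus did not rest on DSS-1, but both calls at the unadjusted threshold did.

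**Figure D2:**
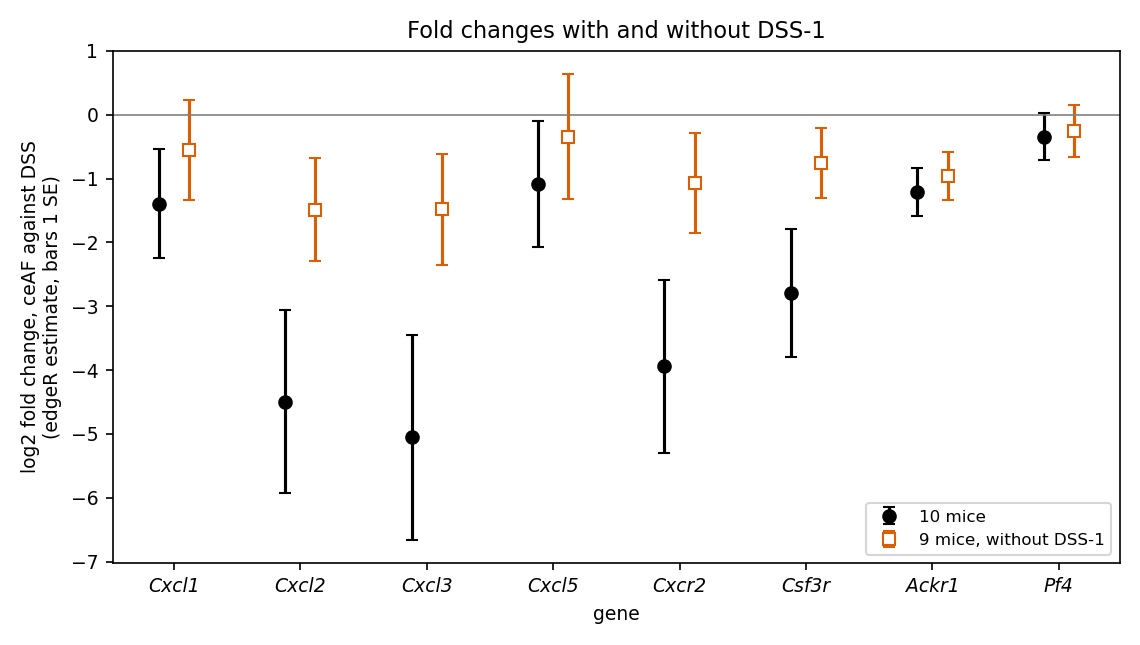
Log2 fold changes (ceAF against DSS) with bars of 1 standard error from edgeR, for all 10 mice (filled) and for 9 mice without DSS-1 (open). Without DSS-1 the estimate for *Cxcl2* moves from −4.49 to −1.49, and that for *Ackr1* only from −1.21 to −0.96.

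The chemokines also differed in how they shared the total. FPKM, which divides by exonic length, allows levels of different genes to be compared within a mouse, and the shares below were drawn up after the values had been seen and carry no test. *Cxcl2* and *Cxcl3* together made up 87.0% of the summed FPKM of *Cxcl1*, *Cxcl2*, *Cxcl3*, *Cxcl5* and *Ppbp* in DSS-1, where the sum was 322.2 FPKM. They also led in DSS-3 with 73.0% and in DSS-4 with 63.8%, although the sum was only 24.5 and 4.80 FPKM there, but in DSS-2 they made up 39.2% and *Cxcl1* and *Cxcl5* 60.8%. *Cxcl1* and *Cxcl5* also led with 80.0% in DSS-5, whose sum of 30.9 FPKM was the next highest after DSS-1. So the mice with the highest totals were led by different ligands, *Cxcl2* in DSS-1 and *Cxcl5* in DSS-5. In the ceAF group *Cxcl1* and *Cxcl5* made up 71.2%, 64.4%, 75.4% and 88.2% in ceAF-2 to ceAF-5, and 38.7% in ceAF-1, where all 5 genes together had 21 reads.

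**Figure D3:**
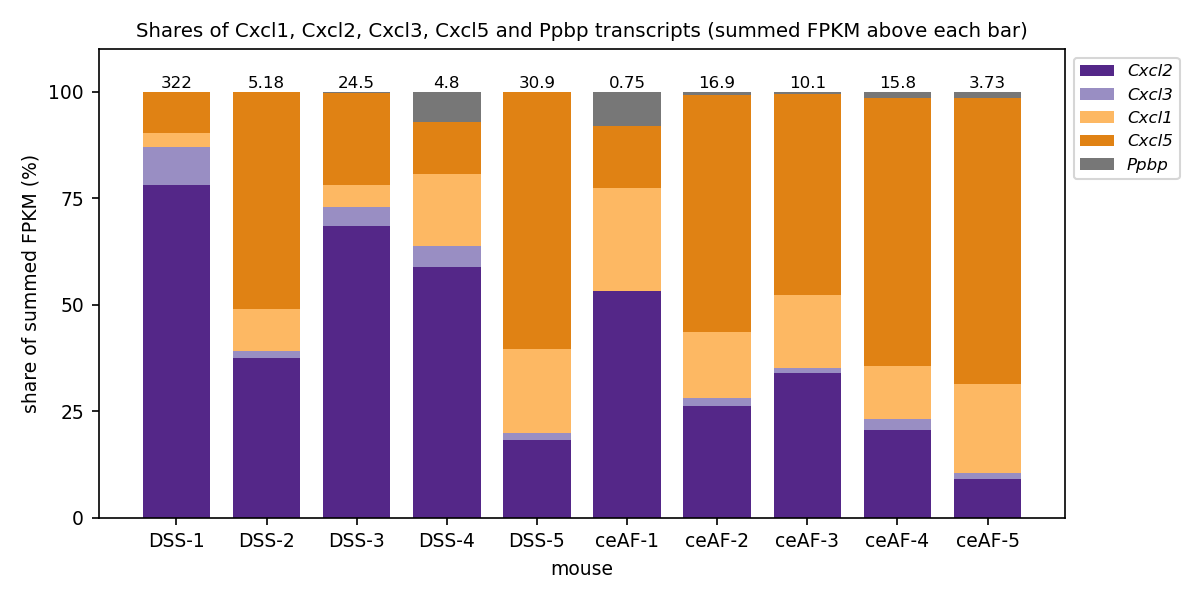
Stacked bars of each ligand's percent of the summed FPKM of *Cxcl1*, *Cxcl2*, *Cxcl3*, *Cxcl5* and *Ppbp* in each mouse, with the sum above the bar. *Cxcl2* takes 78.2% in DSS-1, and *Cxcl5* takes 60.4% in DSS-5 and 67.3% in ceAF-5.

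Over the 10 mice the 4 tested chemokines varied together. Pearson's r of log2 CPM ranged over the 6 pairs from 0.69 for *Cxcl2* with *Cxcl5* (permutation p = 0.0308, rho = 0.82 with p = 0.00598) to 0.96 for *Cxcl2* with *Cxcl3* (permutation p = 4e-05, rho = 0.93 with p = 0.00045). After Benjamini-Hochberg adjustment over the 6 pairs these permutation p-values for r were 0.0308 and 0.00024. The r of *Cxcl1* with *Cxcl5* was 0.91, and 0.97 without ceAF-1 and DSS-4. Without the same 2 mice, *Cxcl5* had r = 0.77 with *Cxcl2* (exact permutation p = 0.0189) and 0.82 with *Cxcl3* (exact permutation p = 0.00623). Without DSS-1 and ceAF-1, the mice farthest from the median for *Cxcl3*, the r of *Cxcl1* with *Cxcl3* was 0.56 (exact permutation p = 0.150) and that of *Cxcl2* with *Cxcl3* was 0.88 (exact permutation p = 0.00176). The r of *Cxcl1* with *Cxcl2* was 0.69 without DSS-1 and ceAF-5 (exact permutation p = 0.0586). These pairs left out different mice, and without DSS-1 alone the r with *Cxcl2* was 0.65 for *Cxcl1* and 0.61 for *Cxcl5*, and the r with *Cxcl3* was 0.76 and 0.75. The counting of reads that match several genes is not given in the sources used here. Of the 50-base windows in *Cxcl2* transcripts of GENCODE M21, 5.84% also occur in *Cxcl3*. A part of the reads of both genes could thus have been assigned to either. Of the windows in *Cxcl3*, 4.24% occur in other genes, *Cxcl2* and many more, and of those in *Cxcl5* 0.693% do. *Cxcl1* shares no such window with another gene.

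Neutrophil transcripts were followed through 24 marker genes that include none of the 6 genes, of which 15 could be tested. Of these 15, 14 were lower in the ceAF group, 11 of them at an unadjusted edgeR p under 0.05. In the exact permutation test 2 were lower at p under 0.05. The median fold change of the 15 was −3.94 on the log2 scale. When DSS-1 was left out it was −1.07, with 3 markers lower at an unadjusted edgeR p under 0.05. None of the 15 passed adjustment in edgeR's test, and DESeq2 called 1, *S100a9* (−5.16, adjusted p 0.0497). The edgeR log2 fold change of *S100a9* was −5.15, and −2.62 without DSS-1 (unadjusted edgeR p 0.0253). The summed marker level was 2956, 386.9, 591.8, 482.5 and 954.3 CPM in DSS-1 to DSS-5 and 79.4, 660.6, 639.2, 417.4 and 847.3 CPM in ceAF-1 to ceAF-5. The most abundant marker was *Cd177*, a surface glycoprotein of neutrophils, which was the single tested marker that was not lower (log2 fold change 0.53, and 0.42 without DSS-1), and *Elane*, the elastase of immature granulocytes, had 0 counts in all mice. *Cd177* and *Ly6g*, the latter named after its values were seen, carried between 85.0% and 96.5% of the sum in all mice but DSS-1 (13.2%) and DSS-3 (51.3%). The sum therefore shows mainly these 2 genes: ceAF-5 had the highest sum of the ceAF group but a marker score of only −1.35. *Cd177* and *Ly6g* together had 391.6 CPM in DSS-1 and 817.7 in ceAF-5, where the other markers had 2565 and 29.6. Both genes are part of the score, and whether neutrophils made their transcripts here was not tested.

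*Cxcl3* and *Cxcl2* followed the neutrophil marker score, the mean of the centred log2 CPM of the tested markers. For *Cxcl3*, r was 0.98 (permutation p = 2e-05) and rho 0.99 (p = 1e-05, the smallest that 100000 resamples can give). For *Cxcl2*, r was 0.97 (permutation p = 0.00014) and rho 0.89 (p = 0.00108). Both relations held without DSS-1 and ceAF-1, the 2 mice farthest from the median score, with r = 0.90 for each. For *Cxcl3*, r was 0.983 within the DSS group and 0.962 within the ceAF group, without a test. For *Cxcl2* these were 0.998 and 0.818. The permutations took no account of group, and the share of all tested genes with such an r is not given here. For *Cxcl1* and *Cxcl5*, r was 0.78 (permutation p = 0.00731) and 0.73 (permutation p = 0.0223), and rho was 0.78 (p = 0.0104) and 0.79 (p = 0.009). Without the same 2 mice r was 0.29 (exact permutation p = 0.488) and 0.31 (exact permutation p = 0.433), and rho was 0.57 and 0.60. Within the ceAF group r was 0.97 for *Cxcl1* and 0.98 for *Cxcl5*, and within the DSS group 0.73 and 0.69, without a test. Over both groups, the p under 0.05 of these relations thus rested on DSS-1 and ceAF-1, while the sign did not. Adjusted over the 4 relations, the permutation p-values for r were 8e-05 for *Cxcl3*, 0.00028 for *Cxcl2*, 0.00975 for *Cxcl1* and 0.0223 for *Cxcl5*, and those for rho were 4e-05, 0.00216, 0.0104 and 0.0104. The part of neutrophil content in the chemokine differences was not tested.

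**Figure D4:**
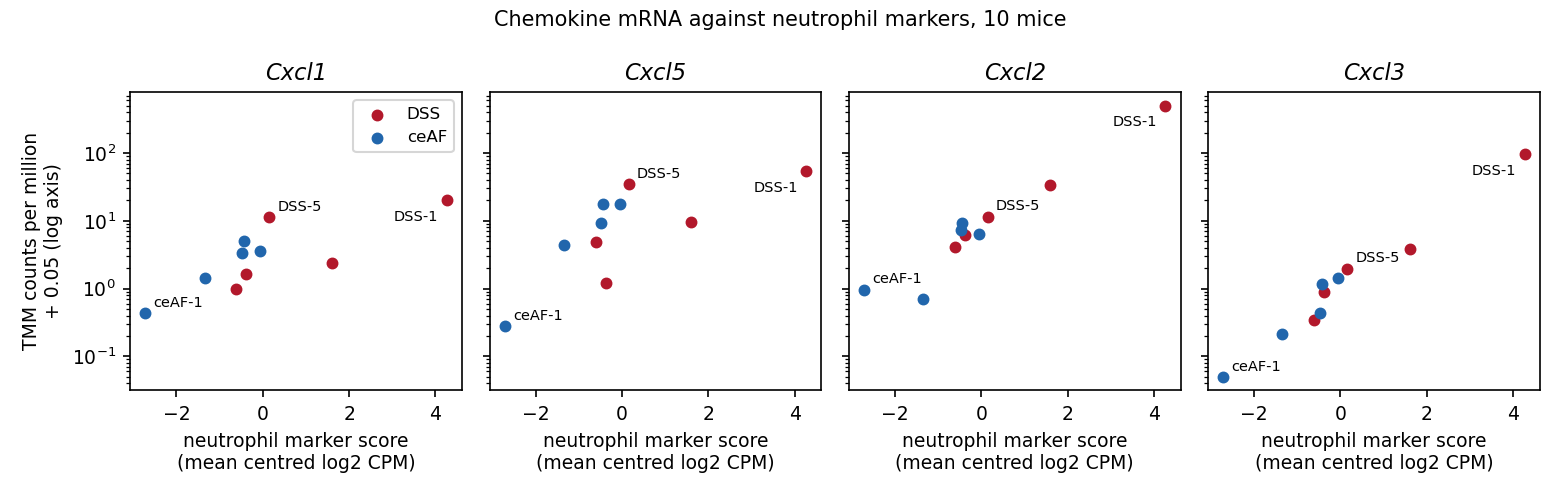
CPM plus 0.05 on a log axis of *Cxcl1*, *Cxcl5*, *Cxcl2* and *Cxcl3* against the neutrophil marker score, 1 point a mouse. *Cxcl3* follows the score along its whole range (r = 0.98), while *Cxcl1* and *Cxcl5* are high in DSS-5 at a score of 0.15.

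The genes most like each chemokine over the 10 mice were found by Pearson's r of log2 CPM among all tested genes. For *Cxcl2* they were *Clec4e* (r = 0.996), *Fpr2* (0.992) and *Il1b* (0.976), which encode a receptor for mycobacterial glycolipid, a formyl peptide receptor and interleukin 1 beta. For *Cxcl3* they were *Hp* (0.984), *S100a9* (0.974) and *Timp1* (0.967). Those 6 genes were all highest in DSS-1. The genes nearest to *Cxcl1* were *Pfkfb3* (0.968), *Tnfrsf1b* (0.963) and *Eln* (0.960), and those nearest to *Cxcl5* were *Sntb2* (0.969), *Trbv25* (0.968) and *Adamts2* (0.967). Of these latter 6, *Pfkfb3*, *Sntb2* and *Trbv25* were not highest in DSS-1.

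Among the receptors, *Cxcr2* and *Csf3r* were highest in DSS-1. *Cxcr2*, the main neutrophil receptor for these ligands, was 45.7, 0.600, 3.77, 0.576 and 0.660 CPM in DSS-1 to DSS-5 and 0.153, 0.651, 1.15, 1.19 and 0.110 CPM in ceAF-1 to ceAF-5. The medians of 0.660 and 0.651 CPM hardly differed, and the log2 fold change of −3.94 (standard error 1.36, edgeR p = 0.0143 unadjusted, exact permutation p = 0.159) was −1.07 without DSS-1. *Csf3r*, the receptor for *Csf3*, ranged from 4.15 to 112.3 CPM among DSS mice and from 0.839 to 6.36 among ceAF mice. Its log2 fold change of −2.80 (standard error 1.00, edgeR p = 0.0177 unadjusted, exact permutation p = 0.151) was −0.76 without DSS-1. *Cxcr1* had 38 counts in the DSS group, 36 of them in DSS-1, and 6 in the ceAF group. *Cxcr2* and *Csf3r* are also among the 24 neutrophil markers, as are *Fpr1* and *Fpr2* of the adhesion list below, and *Pf4* is among the platelet markers.

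*Ackr1*, the atypical receptor that binds chemokines on venular endothelium and red cells without signalling, was also highest in DSS-1 but had a smaller spread over the mice. It was 3.25, 1.45, 1.86, 0.704 and 2.70 CPM in DSS-1 to DSS-5 and 0.839, 0.846, 1.15, 0.835 and 0.605 CPM in ceAF-1 to ceAF-5. All DSS mice but DSS-4 were above all ceAF mice. Its log2 fold change was −1.21 (standard error 0.38, edgeR p = 0.0088 unadjusted, 0.656 adjusted, exact permutation p = 0.0397), and −0.96 without DSS-1, with an unadjusted edgeR p of 0.0274 and an exact permutation p of 0.0714. Under voom it was −0.72 (unadjusted p 0.0752), and without ceAF-1 and ceAF-5 it was −1.07 (unadjusted edgeR p 0.0516), so the unadjusted call depended on the model and the mice. Among 10 endothelial markers, 9 were lower with ceAF, 1 of them at an unadjusted p under 0.05, and the median log2 fold change was −0.30, or −0.15 without DSS-1.

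Of the 17 genes listed as inducers of these chemokines and their receptors, 10 were tested, 8 were lower, and 3 of them, *Il1b*, *Il1a* and *Il33*, had an unadjusted edgeR p under 0.05. The list median was −0.27. Without DSS-1, 6 were lower, the median was −0.10 and 0 had such a p, and in the exact permutation test over all mice 0 were lower at p under 0.05. *Il1b* was 596.6 CPM in DSS-1, between 11.4 and 61.1 in the other DSS mice and between 1.68 and 20 in the ceAF mice. Its log2 fold change was −3.79 (standard error 1.25, edgeR p = 0.0112 unadjusted, exact permutation p = 0.0952) and −1.35 without DSS-1. *Il1a* had −3.08 (−0.80 without DSS-1) and *Il33* −1.27 (−0.63 without DSS-1). *Tnf*, another inducer, moved less, with −0.58 (standard error 0.35, and −0.38 without DSS-1) and a range of 7.75 to 19.9 CPM in the DSS and 4.20 to 11.9 in the ceAF group. *Osm*, *Il6* and *Il17a* were too low to test, with 762, 168 and 49 counts in the DSS group, 92, 27 and 23 of these outside DSS-1, and 31, 49 and 30 counts in the ceAF group. *Osm*, which encodes oncostatin M, was at or under 0.494 CPM in all ceAF mice and at or above 0.500 in all DSS mice. That gap is far below the worth of 3 counts, 0.150 to 0.229 CPM in these libraries, and so within counting error. The log2 fold change of *Osm* in the fit without a filter was −4.50 and without DSS-1 −1.85. Among tested genes, which do not include *Osm*, 0.465% had all ceAF mice below all DSS mice.

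For genes of NF-kB signalling and feedback, through which those cytokines induce the chemokines, the median difference in mRNA was small. The activity of NF-kB itself was not measured. Of 22 genes, all tested, 14 were lower and 8 higher (median log2 fold change −0.09, and −0.05 without DSS-1), and *Rela* and *Cebpb* had an unadjusted edgeR p under 0.05, where 0 genes had one without DSS-1. *Rela*, a subunit of NF-kB, had −0.32 (standard error 0.12, exact permutation p = 0.0159) and kept −0.26 without DSS-1 (exact permutation p = 0.0317), and *Cebpb*, a transcription factor of myeloid cells, had −1.31 (standard error 0.53) with −0.34 when DSS-1 was left out. The feedback inhibitor *Nfkbia* had −0.42 (standard error 0.27) and *Nfkbiz* −0.32 (standard error 0.23), and both had −0.12 without DSS-1. *Zc3h12a*, whose product degrades inflammatory mRNAs, had 0.25 (standard error 0.27), with 0.13 to 0.46 when single mice were left out and 0.53 under voom. None of these 5 passed adjustment, and the difference of this list from the chemokines was not tested.

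Among 19 genes of granulocyte adhesion and recruitment, 17 were tested and 16 were lower, 11 of them at an unadjusted edgeR p under 0.05, with a median log2 fold change of −1.30. Without DSS-1 the median was −0.65 and 4 were under that threshold. In the exact permutation test over all mice 7 were lower at p under 0.05. *Ccl4* and *Ccl3*, CC chemokines of myeloid cells and lymphocytes, had −3.66 (standard error 0.87, exact permutation p = 0.00794, the smallest possible) and −4.19 (standard error 1.10, exact permutation p = 0.0159). Unlike for *Cxcl2*, both stayed at an unadjusted edgeR p under 0.05 without DSS-1, at −2.16 (exact permutation p = 0.0159) and −2.05 (exact permutation p = 0.0238). *Itgal*, *Selplg* and *Itgb2*, which encode leukocyte adhesion molecules, had −1.20, −1.35 and −1.04, and −1.08, −0.93 and −0.70 without DSS-1. Without that mouse *Itgal* and *Selplg* stayed at an unadjusted edgeR p under 0.05, and *Itgb2* did not (0.0521, exact permutation p 0.0952). *Alox5ap*, needed for leukotriene synthesis, had −2.51 (exact permutation p = 0.119) and −0.65 without DSS-1, no longer under the unadjusted threshold. The endothelial ligand *Icam1* had −0.58 (standard error 0.29), with −0.78 to −0.38 when single mice were left out, and *Sele* had 13 and 22 counts in the DSS and ceAF groups. All 10 T cell markers were lower as well, 7 at an unadjusted p under 0.05 and 6 without DSS-1.

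Other CXC chemokines, which attract mainly lymphocytes, did not share the large differences. Of 8 listed genes 7 were tested and 6 were lower (median log2 fold change −0.36, and −0.23 without DSS-1), and only *Cxcl12* had an unadjusted edgeR p under 0.05. *Cxcl12*, the stromal ligand of Cxcr4, had −0.54 (standard error 0.23, exact permutation p = 0.0476) and −0.48 without DSS-1. Without that mouse its unadjusted edgeR p was 0.0816 and its exact permutation p 0.119, so the unadjusted call was lost. The log2 fold change of *Cxcl12* was −0.25 under voom (unadjusted p 0.152). Without ceAF-1 and ceAF-5 it was also −0.25 (unadjusted edgeR p 0.136). *Cxcl9* was the most abundant of them and overlapped between the groups, from 17.5 to 68.6 CPM in the DSS and from 13.1 to 69.9 in the ceAF group. The difference between the lists was not tested.

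Other cell type markers were examined because several cell types make these chemokines. Of 12 macrophage markers 11 were lower, 2 at an unadjusted edgeR p under 0.05, and the median log2 fold change was −0.54, or −0.35 with 0 such genes without DSS-1. The most abundant, *Lyz2*, had −0.67 (−0.30 without DSS-1) and the least abundant, *Fcgr1*, had −0.81 (−0.54 without DSS-1). All 10 fibroblast markers were lower with a median of −0.37, 2 of them at that threshold, but without DSS-1 only 5 were lower, with a median of −0.13. The 5 tested platelet markers had a median of −0.34, with 1 at that threshold, and without DSS-1 the median was −0.11 with 0. All 10 B cell markers were highest in DSS-1, and their median of −0.71 became 0.51 without that mouse. Medians were −1.18 for T cell markers, −0.14 for 10 smooth muscle markers, −0.18 for 4 tested mast cell markers (−0.12 without DSS-1) and 0.02 for the epithelial markers. Their part in the chemokine differences was not tested.

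The chemokine genes lie together on chromosome 5. At the positions of the count table, whose build is not named, the cluster runs on the plus strand from *Cxcl5* at 90907219 to 90909483 through *Ppbp* (90916377 to 90917922), *Pf4*, *Cxcl3* (90933962 to 90937459), *Cxcl15* and *Cxcl1* (91039100 to 91040974) to *Cxcl2* at 91051730 to 91053797. Within these 146579 bases the table lists 11 genes, of which 5 were tested and 4 had 0 counts, among them *Cxcl15*, a chemokine known from lung. Neighbours in the cluster did not have like levels, with median FPKM in the DSS group of 5.28 for *Cxcl5*, 0.06 for *Ppbp*, 3.07 for *Pf4* and 0.56 for *Cxcl3*. *Csf3* lies elsewhere, on chromosome 11 at 98592089 to 98594455, yet was highest in DSS-1 as well.

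The promoters of these related genes were searched for a common NF-kB type motif, GGGNNNTTCC, on both strands. RefSeq promoters of GRCm38.p6 were at hand for 4 of the 6 genes, *Cxcl1*, *Cxcl2*, *Cxcl3* and *Ppbp*. The 110 bases before the annotated start are shown 5′ to 3′ with matches in capitals, and the overlapping letters GGGAATTTCCC match on both strands. The windows are chr5:90891135-90891244 for *Cxcl1*, chr5:90903789-90903898 for *Cxcl2*, chr5:90785991-90786100 for *Cxcl3* and chr5:90768408-90768517 for *Ppbp*, all on the plus strand.
Cxcl1: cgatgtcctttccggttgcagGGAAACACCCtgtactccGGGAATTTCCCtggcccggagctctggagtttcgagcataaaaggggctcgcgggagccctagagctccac
Cxcl2: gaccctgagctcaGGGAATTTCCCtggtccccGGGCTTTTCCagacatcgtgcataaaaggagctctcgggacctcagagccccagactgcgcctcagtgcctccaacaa
Cxcl3: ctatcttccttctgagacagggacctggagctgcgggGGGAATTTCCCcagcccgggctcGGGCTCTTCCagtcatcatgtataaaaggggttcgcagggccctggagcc
Ppbp: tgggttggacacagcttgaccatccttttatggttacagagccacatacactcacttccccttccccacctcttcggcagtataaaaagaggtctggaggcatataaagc
The first 3 promoters hold the motif within 97 bases of the start, each with the same 11-letter run, and *Ppbp* holds none in its 300 bases. Of 32851 mouse promoters of that length, 5.56% hold the motif. The letters ATAAAA lie closer to the start, beginning 34, 57, 29 and 29 bases before it, and occur in 18.5% of promoters on either strand. A match of letters does not show that a factor binds there.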

How the data were processed

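RNA from colon tissue was made into poly(A) libraries and sequenced by a company. The authors deposited raw read counts for genes and FPKM values that equal those counts divided by exonic length and library total, within rounding to 2 decimals, in 100% of genes. The submitters' processing notes name cutadapt 1.9.1 and HISAT2 2.2.1, and the counting program, annotation and build are not given in the sources used here. Groups came from the sample labels. Genes were kept by edgeR 4.0.16 filterByExpr (minimum count 10, R 4.3.3), scaled by TMM and tested with the two-sided quasi-likelihood test, with adjustment by Benjamini and Hochberg over 16545 genes. Log2 CPM used a prior count of 1. Exact permutation tests were two-sided on mean log2 CPM, and correlations used 100000 resamples. The script was tested on simulated data. The alternatives were upper quartile scaling, DESeq2 1.42.0, voom (limma 3.58.1), robust fits, no filter, limma-trend on FPKM with pseudocounts of 1 and 0.1, a replicate block and leaving out mice. Folds without a filter and without DSS-1, folds without ceAF-1 and ceAF-5, and gene and list counts without DSS-1 were chosen after seeing the data. The 6 genes and all lists were chosen with earlier results of these data known. Named genes were the 6 genes and their receptors, genes of 4 lists with an unadjusted p under 0.05 (at most 6 a list) plus 11 cytokine, feedback and adhesion genes, the most and least abundant markers of the lists discussed, and the 3 genes most like each tested chemokine. Floors of 3 counts cover counting error only, and molecular tags are not named in the sources used here. Each library stands for 1 mouse by its label.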

Additional observations from a re-analysis of the deposited data

Results flagged for a closer look

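Of 32 checks for a mouse far from the others of its group (log2 CPM of 9 genes, scores of 6 marker lists and total counts, in each group of 5), 2 passed Dixon's 95% limit of 0.71, where chance alone gives about 1 in 20, or 1.6. The fibroblast marker score of DSS-1 was 1.03, while the rest of its group had −0.01 to 0.12, a gap of 0.873 of the group's range. The total count of DSS-2, 19901549, was above the 16275884 to 16611021 of the other DSS mice, with a gap of 0.908 of the range. On the log2 scale DSS-1 did not pass this limit for any tested chemokine, its gap being 0.573 of the range for *Cxcl3* and 0.559 for *Cxcl2*.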

How the results depend on the processing

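For the 4 tested chemokines 19 alternatives were run, and 0 gave an adjusted p under 0.05. *Cxcl2* and *Cxcl3* were lower in the ceAF group in all 19, from −4.85 to −1.16 and from −5.57 to −1.18, and *Cxcl1* and *Cxcl5* in 18. Leaving out single mice gave −1.73 to −0.55 for *Cxcl1* and −1.40 to −0.34 for *Cxcl5*, and leaving out DSS-1 and ceAF-1 gave −0.28 and −0.04, and −1.24 for *Cxcl2* and −1.19 for *Cxcl3*. The number of genes called was 0, but 30 with DESeq2, and 0 to 3 when single mice were left out. voom reversed *Cxcl1* to 0.70, *Cxcl5* to 0.68, *Tnf* to 0.00, *Nfkbia* to 0.05, *Eln* to 0.15, *Sntb2* to 0.07, *Trbv25* to 0.82 and *Adamts2* to 0.41. Without DSS-1 and ceAF-1, *Sntb2* was 0.04, *Trbv25* 0.05 and *Adamts2* 0.35, and leaving out single mice gave −0.82 to 0.04 for *Trbv25* and −0.36 to 0.12 for *Adamts2*. Without ceAF-1 and ceAF-5, chosen after seeing the data, *Sntb2* was 0.05, *Trbv25* 0.03 and *Adamts2* 0.16. The cause was not tested. Without the mice farthest from the median neutrophil score, r was 0.29 for *Cxcl1* and 0.31 for *Cxcl5*. *Ppbp* and *Csf3* could be fitted only without a filter, where *Ppbp* was 0.06 without DSS-1. DESeq2 called *Ccl4* (−3.67, adjusted p 0.00183) and *S100a9* (−5.16, adjusted p 0.0497), whose adjusted p ranged up to 1 elsewhere. Without DSS-1 the edgeR log2 fold changes of *Ccl4* and *S100a9* were −2.16 and −2.62.

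The replicate numbers did not pair the mice, since the deviations of same-numbered mice correlated at −0.25, −0.14, −0.004, −0.16 and 0.29, and only number 5 correlated best with its own number. With the number as a replicate block 0 genes were called, and *Cxcl2* was −2.18. Depth limits *Ppbp*, *Csf3* and *Cxcl3*.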
